A study of Danio rerio with 19 samples.

Results

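The muscle microRNAs miR-1, miR-206, miR-133a, miR-133b, miR-133c and miR-499 were followed in zebrafish that express oncogenic HRAS and in their controls. They were taken by name from the probes for known miRNAs on a custom array: every probe named for one of these families, whichever arm of the hairpin it detects, was a member. This gave 20 of the 546 known miRNA probes, and these 20 probes hold 14 different sequences. The array had 7604 probes in all, most of them for predicted hairpins.

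MicroRNAs are short RNAs that guide a silencing complex to messenger RNAs, mainly through the seed at bases 2 to 8. One arm of the hairpin usually enters that complex (the guide arm), while the other arm is mostly degraded. miR-1, miR-133 and miR-206 are known as miRNAs of striated muscle, where miR-1 and miR-206 are linked to differentiation and miR-133 to the growth of muscle precursors. miR-206 belongs to skeletal muscle, and miR-499, which lies in an intron of a myosin heavy chain gene in mammals, to heart and slow muscle. In samples that mix tissues these miRNAs therefore also serve as a gauge of muscle RNA.

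The guide arms are shown because the families share seeds, and 3 of the other arms because they changed most. Each line gives the RNA that the probe is designed to bind, 5′ to 3′, read from the deposited probe sequence, with the seed in capitals and the probe names of the files in brackets.
miR-1 right arm (dre-mir-1-1_r, dre-mir-1-2_r): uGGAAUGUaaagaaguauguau
miR-206 right arm (dre-mir-206-1_r, dre-mir-206-2_r): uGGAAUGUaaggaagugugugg
miR-133a right arm (dre-mir-133a-1_r, dre-mir-133a-2_r): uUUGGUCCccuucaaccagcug
miR-133b right arm (dre-mir-133b_r): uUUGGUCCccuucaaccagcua
miR-133c right arm (dre-mir-133c_r): uUUGGUCCcuuucaaccagcua
miR-499 left arm: uUAAGACUugcagugauguuua
miR-206-1 left arm: aCAUGCUUccuuauaugcccau
miR-206-2 left arm: aCAUACUUccuuauauccccau
miR-499 right arm: gAACAUCAcuuuaagucugugc

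miR-1 and miR-206 had the same seed and differed at 4 of 22 bases (A11G, A17G, A21G and U22G, counted from the 5′ end, miR-1 base first). The miR-133 right arms also shared 1 seed. miR-133a and miR-133b differed at the last base (G22A), and miR-133b and miR-133c at base 10 (C10U), so that a probe of one may also bind RNA of another. The same holds for left arms. Those of miR-1-1, miR-1-2, miR-206-1 and miR-206-2 differed from each other at 1 to 3 of 22 bases, and those of miR-133b and miR-133c at 2. The right arms of miR-1 and miR-206 were each covered by a pair of probes with the same sequence, as were both arms of miR-133a and of miR-499. The probes of a pair read the same RNA pool and are not independent. For miR-1, miR-206 and miR-133a that pool comes from several genes, while for miR-499 only the gene mir499a was matched. In the RefSeq annotation (GRCz12tu) mir1-1 lies within 50 kb of mir133a-2, mir1-2 of mir133a-1, mir206-1 of mir133b and mir206-2 of mir133c, while mir499a has no such neighbour among the members. Below, the right arms of miR-1, miR-206 and miR-133 and the left arm of miR-499 are called guide arms (10 probes, 6 sequences), and the rest other arms (10 probes, 8 sequences).

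The data came from 19 two-color arrays. On each array RNA of Ras fish, labeled with Hy3, was compared with RNA of wild-type AB control fish, labeled with Hy5. The kita:Ras line carries the driver Et(kita:Gal4TA, UAS:mCherry)hmz1 with the effector Tg(UAS:eGFP-HRASV12)io006, and expresses the oncogene in melanocytes and also in the notochord. It was sampled at 3 dpf (4 arrays), 7 dpf (3 arrays) and 14 dpf (3 arrays), and as tumors in the tail fin of adults against control tail fin (3 arrays). The zic:Ras line has the driver Et(zic4:Gal4TA4, UAS:mCherry)hzm5 with the same effector in brain cells, and was sampled at 3 dpf (3 arrays). The HS-Ras line, Tg(hsp70l:EGFP-HRASV12)i03, turns the oncogene on in the whole embryo after 30 min at 37 °C. It was sampled at 3 dpf, 6 h after this heat shock, against controls that had the same heat shock (3 arrays). Larval samples were pools of 15 larvae, or of 5 larvae at 14 dpf, from different parents. Adult samples were single fins, for which no age was used here.

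Across arrays the share of known probe spots above background ran from 49.0% to 89.5% for Ras RNA and from 61.7% to 92.0% for control RNA. The 6 guide arm sequences were well above background in both channels on all arrays, and 0 member spots were saturated. Several other arms were dim: at 3 dpf in kita:Ras 5 of their 10 probes had too few measured arrays to be tested, and in adult fin 3 of 10. No array had the dyes swapped, so that a dye bias of a probe and a difference between Ras and control cannot be told apart in its ratio. The arrays lay on 3 slides. Replicates 1 and 2 of kita:Ras at 3 dpf shared the first with all 7 and 14 dpf arrays. Replicates 3 and 4 shared the second with the adult fins, and both other lines were on the third. By the file headers the second slide was read on a G2505B scanner and the others on a G2505C. A setting for extended dynamic range was on for the first and second slide and off for the third.

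The first question was whether the muscle miRNAs differ between Ras and control larvae. At 3 and 7 dpf the guide arms had nearly the same level in both. Their mean log2 ratios of Ras over control lay between -0.12 and 0.11 in kita:Ras at 3 dpf, between -0.24 and 0.10 in zic:Ras, between -0.29 and 0.17 in HS-Ras and between -0.19 and 0.18 in kita:Ras at 7 dpf. A ratio counted as called when its fold was above 1.2 and its p from limma, adjusted by Benjamini-Hochberg across the tested probes for known miRNAs, was below 0.01. In these 4 comparisons 0 of 15, 0 of 20, 0 of 19 and 0 of 20 member probes were called, while of all known probes 0.781%, 0.881%, 1.11% and 1.81% were called higher and 0%, 0.220%, 0.664% and 0.202% lower. At an unadjusted p below 0.05 there were 1, 2, 4 and 0 member probes. Of all known probes there were 86 of 384, 70 of 454, 80 of 452 and 57 of 496. These are bulk samples, in which fewer muscle cells and less of a miRNA per cell cannot be told apart.

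miR-1 was the guide arm with the lowest ratio in heat-shocked larvae. Its right arm had log2 ratios of -0.23, -0.32 and -0.31 on the 3 HS-Ras arrays, with a mean of -0.29 ± 0.05 (SD, n = 3; 95% interval -0.48 to -0.09; limma, adjusted p = 0.0721). The second probe of the same sequence had a mean of -0.23 (adjusted p = 0.212). Both were also below 0 on all arrays of zic:Ras and of kita:Ras at 7 dpf, with means between -0.19 and -0.17. miR-133b lay on the other side of 0, with mean log2 ratios of 0.11, 0.10, 0.10 and 0.16 in the same order of comparisons as above, and was above 0 on 15 of the 16 larval arrays once 14 dpf is included. None of these differences passed the test, and a dye effect of this size cannot be told apart from them.

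**Figure D1:**
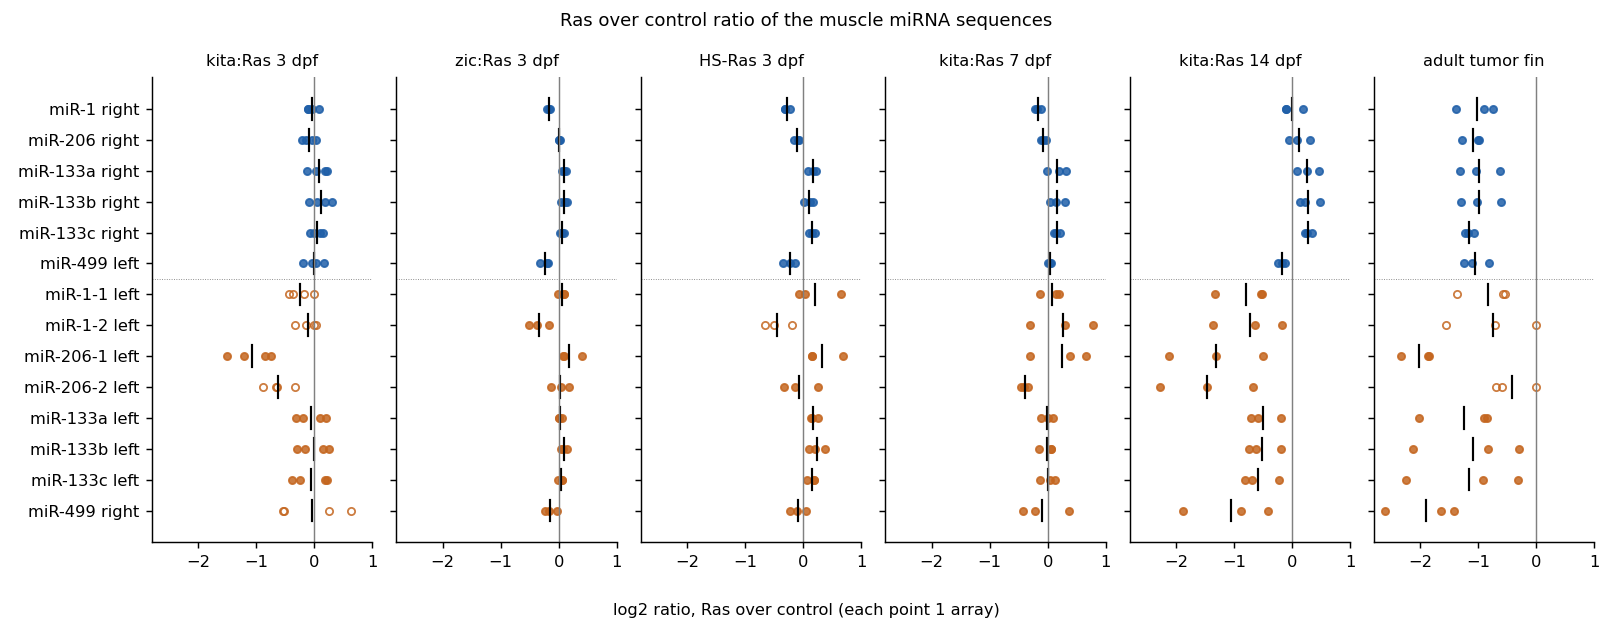
Log2 ratio of Ras over control (horizontal axis) of the 14 member sequences (rows, one probe each) in the 6 comparisons (panels); each point is 1 array and the black bar is the mean. Blue points are guide arms, orange points other arms, and open symbols mark probes too dim to be tested in that comparison. The guide arms stayed near 0 in all larvae and lay around -1 in adult tumor fin, and the other arms lay below 0 at 14 dpf.

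Among the other arms the left arm of miR-206-1 stood lowest at 3 dpf. In kita:Ras its log2 ratios were -0.74, -0.84, -1.22 and -1.51, all below 0 (mean -1.08 ± 0.35, SD, n = 4; adjusted p = 0.0172, not called). The Ras channel of this probe was above background on 2 of these 4 arrays and the control channel on 4 of 4. In zic:Ras and HS-Ras its mean ratios were 0.18 and 0.33. The test of a difference between the 3 models gave an adjusted p of 0.0612 (limma's F test), and 0 of 15 members passed it, against 0.266% of all known probes. As zic:Ras and HS-Ras lay on another slide than kita:Ras, model cannot be told apart from slide and scan in this test. At an unadjusted p below 0.05 it was 1 of 15 members, against 53 of 376 known probes. The left arms of miR-133 differed by slide: in kita:Ras at 3 dpf that of miR-133c had ratios of -0.26 and -0.38 on the first slide and 0.21 and 0.18 on the second, so that the mean of -0.06 describes neither pair.

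At 14 dpf the arms of the hairpins parted. The guide arms were still near 0, from -0.18 for miR-499 to 0.28 for miR-133a, and 0 of 10 probes were called. The right arm of miR-133c was above 0 on each array, at 0.27, 0.34 and 0.23 (mean 0.28 ± 0.06, SD, n = 3; adjusted p = 0.0226). The right arms of miR-133a and miR-133b had means between 0.27 and 0.28, with adjusted p between 0.0521 and 0.0762. The other arms, by contrast, all had means below 0, from -1.47 to -0.49, and 9 of 10 probes were called lower, against 20% of all known probes and 31.2% of those at or below the median in signal. These calls depended on the fit: with each comparison fitted alone 0 members were called, and with the replicate number or the slide as a block 4 each. The shares of known probes called in those fits are not given, so a loss of member calls cannot be told apart from a loss of all calls.

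Lowest was the left arm of miR-206-2, whose ratio was -1.47, -2.27 and -0.68 on the 3 arrays, which is 2.77-fold lower in Ras (mean -1.47 ± 0.79, SD, n = 3; limma, adjusted p = 0.000826). Over all alternatives this mean ran from -1.87 to -0.51. The left arm of miR-206-1 followed with -1.31, -2.12 and -0.50 (mean -1.31, adjusted p = 0.00233). The right arm of miR-499 was at -0.90, -2.05 and -0.65 in one probe (mean -1.20, adjusted p = 0.00337) and at a mean of -1.06 in its twin (adjusted p = 0.00798). In each of these the second array was the lowest and the third the highest, and all values were below 0.

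The left arm of miR-1-1 was 1.73-fold lower (mean -0.79, adjusted p = 0.00363). The left arms of miR-133a, miR-133b and miR-133c were also called, with means between -0.58 and -0.49 and adjusted p between 0.00644 and 0.00806. For miR-1-2 the left arm had a mean of -0.73 and was not called (adjusted p = 0.0185). All 10 probes lay below 0 on 3 of 3 arrays. The share of all known probes that did so is not given, and the median of all known probes was itself below 0 on each array (-0.10, -0.32 and -0.10).

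Lower ratios at 14 dpf were not confined to muscle miRNAs, and the number of calls depended on single arrays, though the sign did not. Only 1.40% of all known probes were called higher, and 6 of the 10 other arm probes were among those at or below the median in signal. On replicate 2 the median log2 ratio of all known probes was -0.32, and that of those at or below the median in signal was -0.95. The other arms had a median of -1.35 there, and the guide arms one of 0.33. On replicates 1 and 3 the other arms had medians of -0.67 and -0.32, against -0.28 and -0.26 for the dimmer known probes. Over the 3 arrays the dimmer known probes had a median of -0.48, and the 6 dimmer other arm probes one of -1.13. Without replicate 2, 1 member probe was called (the left arm of miR-206-2, mean -1.07, adjusted p = 0.00427) together with 4.60% of all known probes lower, and the median of the other arms was -0.50. Without replicate 1 there were 3 member calls, for which the share of known probes is not given. The part of signal strength in the result was not tested.

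The test between the 3 ages of kita:Ras gave no member call (0 of 15, against 1.05% of all known probes). At an unadjusted p below 0.05 it was 5 of 15 members, against 81 of 381 known probes. The smallest adjusted p was 0.0395, for the left arm of miR-206-1, which had means of -1.08, 0.25 and -1.31 at 3, 7 and 14 dpf. The other arms of miR-1, miR-206-2 and miR-499 were too dim at 3 dpf to enter this test. The fall at 14 dpf was therefore not shown to differ from the earlier ages.

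In adult tumor fin all guide arms lay below control fin, though none passed the threshold. Their mean log2 ratios lay in a narrow range, from -1.17 to -0.98, which is 1.98-fold to 2.24-fold lower. Every one of the 10 probes was below 0 on 3 of 3 arrays. The share of all known probes that did so is not given, and the median of all known probes was -0.32, -0.46 and -0.04 on these arrays. miR-1 had ratios of -0.91, -1.39 and -0.75 (mean -1.02 ± 0.34, SD, n = 3; limma, adjusted p = 0.0318). miR-206 was at -0.995, -1.01 and -1.28 (mean -1.10 ± 0.16; adjusted p = 0.0227). miR-133a was at -0.63, -1.32 and -1.04 (mean -0.996 ± 0.35; adjusted p = 0.0336). The ratio of the skeletal muscle miRNA miR-206 thus lay in the same range as those of miR-1 and miR-133.

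miR-133c was the most even across fish, at -1.23, -1.19 and -1.08 (mean -1.17 ± 0.08, SD, n = 3; adjusted p = 0.0182). miR-133b had a mean of -0.98 and the left arm of miR-499 one of -1.06, with adjusted p of 0.0347 and 0.0251. The adjusted p of the 10 guide arm probes lay between 0.0182 and 0.0347. At an unadjusted p below 0.05 it was 17 of 17 member probes, against 180 of 346 known probes, and at an adjusted p below 0.05 it was 15 of 17, against 30.1% of known probes lower and 11.8% higher. The median log2 ratio of all known probes was -0.18.

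Of the other arms 2 of 7 probes were called lower in tumor fin, which makes 2 of the 17 member probes tested, against 4.34% of all known probes (4.05% were called higher). The left arm of miR-206-1 had ratios of -1.88, -2.33 and -1.85 (mean -2.02 ± 0.27, SD, n = 3; adjusted p = 0.00434). Its Ras channel was not well above background on any of the 3 arrays, and the measured signals bound the change only as at least 1.30-fold lower. That bound sets the mean of the control channel against the higher of the dimmest well-measured signal and the probe's own signal. These signals were taken after background correction with an offset of 50, loess normalization and Aquantile scaling between arrays. The right arm of miR-499 had ratios of -2.61, -1.43 and -1.65 in one probe (mean -1.90 ± 0.63; adjusted p = 0.00958), with the Ras channel above background on 1 of 3 arrays, and a mean of -1.45 in its twin (adjusted p = 0.0342). The 4 tested left arm probes of miR-133 had means from -1.26 to -1.09 and were not called, with replicate 2 at -1.99 to -2.25 and the other fins at -0.30 to -0.92. No member was called when all channels had to be above background on every array (0 calls), nor without replicate 1 or without replicate 3 (0 calls each), whereas 4 members were called without replicate 2. The shares of known probes called in these settings are not given.

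miRNAs of other cell types moved in the same arrays. Of 16 probes for miRNAs of epidermis and other epithelium (miR-141, miR-200, miR-203, miR-205 and miR-429), 11 were tested and all lay between -2.10 and -1.35 with a median of -1.56, 1 of them called lower. Their summed level was 12 to 14 times the scaling value of the array's control channel in control fin. In tumor fin it was 2.2 to 5.38 times that of the Ras channel, and 5 of 16 sequences were above background on 0 of the control arrays. Probes for miR-143 and miR-145 of smooth muscle had a median of -0.43 and ran from -0.56 to 0.09 (0 of 6 called). Those of cartilage and connective tissue had a median of -0.47 and ran from -1.05 to 0.60 (0 of 10 called). Brain miRNAs had a median of -1.03 and ran from -1.69 to 2.31 (31 of 48 tested, 2 higher and 1 lower). Their summed level was low, at 0.566 to 0.671 times the scaling value in control fin and 0.826 to 1.24 times in tumor fin. Relative to the scaling value of its own channel, the sum was thus higher in tumor fin, against the sign of the median. Of 26 brain sequences 10 were above background on 0 of the control arrays. Probes of white blood cells had a median of -1.27 and ran from -2.56 to 1.05 (6 of 8 tested, 1 lower). Those of red blood cells had a median of -0.34 and ran from -1.25 to 0.11 (0 of 4 called). The probes for miR-204, a miRNA of retina and pigment cells, had a median of 2.69 and ran from 0.03 to 4.17, with 3 of 6 called higher. These 6 probes hold only 4 different sequences and are not all independent. Summed over the guide arms, the muscle level was 21.7 to 26.9 times the scaling value in control fin and 8.24 to 11.7 times in tumor fin. Each channel had its own scaling value (from 273 probes for control and 212 for Ras), so that such sums are not on one scale. In zic:Ras larvae the guide arm sums were 13.2 to 14.4 for control and 9.72 to 10.6 for Ras, with log2 ratios from -0.24 to 0.10. The part of a changed cell makeup in the muscle result was not tested.

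The known probes whose ratio ran most like that of the muscle guide arms included miRNAs of the epithelial list. The measure was Pearson's correlation over the 19 arrays with the mean log2 ratio of the 5 right arm sequences, among 293 probes of other sequence tested in all comparisons. The 5 highest were miR-216b-1 left (0.963), miR-203a right (0.953), miR-200c right (0.949), miR-182 left (0.944) and miR-200b right (0.937). These values rest on the 3 adult arrays, where the 5 probes had means from -2.00 to -1.35. Over the 16 larval arrays the same correlations were -0.157, 0.521, 0.63, -0.146 and 0.649. The points of one array share its RNA, labeling and normalization.

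The second question was how the muscle miRNAs change with age in control fish. For this the signal of the control channel was used, as log2 after subtraction of each array's 75th percentile over 273 probes measured on all arrays, and ages were compared within 1 slide. The 3 pairs of ages share their arrays and are not independent. Relative to these scaling probes, all 10 other arm probes were lower at 7 than at 3 dpf, with differences from -2.49 to -0.84, and 9 of them were called. The guide arms had differences from -0.55 to 0.16. Of 20 member probes 11 were called lower and 0 higher, against 30.3% of known probes lower and 15.8% higher (38.5% lower among those at or below the median in signal). The balance depended on the scaling: with arrays scaled on the median of all known probes 5 members were called higher and 5 lower, with a median of 0.77 for the guide arms and -0.69 for the other arms, and the right arms of miR-206 (0.48 and 0.51) and 1 probe of the miR-499 right arm (0.10) turned positive. With Aquantile scaling 4 were called lower and the medians were -0.12 and -0.61. The shares of known probes called under these other scalings are not given here, so that the counts cannot be read as a result about the members.

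Most of all fell the left arm of miR-206-1. Its control level was -4.89 and -4.84 at 3 dpf and -7.18, -7.69 and -7.21 at 7 dpf, with no overlap (difference -2.49 ± 0.29, SE; 5.62-fold lower; limma, adjusted p = 4.49e-06). Over all alternatives this difference ran from -2.58 to -0.78, with an adjusted p of up to 0.0258, and the call was lost with Aquantile scaling. It was back at -5.73, -4.80 and -5.34 at 14 dpf. For miR-133c the left arm went from -1.77 and -1.86 to -3.73, -3.81 and -3.63 and then to -2.43, -1.81 and -2.09 (7 minus 3 dpf: -1.91 ± 0.21, SE; adjusted p = 2.32e-06). The differences of the remaining other arms lay between -1.97 and -0.84, and 1 of the miR-499 right arm probes missed the threshold (adjusted p = 0.0491).

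From 7 to 14 dpf the direction of the other arms was the opposite. Called higher were 9 of 20 member probes, all of them other arms, with differences from 1.03 to 2.07, against 25.3% of known probes higher and 7.17% lower (36.3% higher among the dimmer ones). With Aquantile scaling 3 were called higher and the median of the other arms was 0.54 in place of 1.63, and scaled on the median of all known probes 7 were called higher and 10 lower, with a guide arm median of -0.82. For these other scalings the shares of known probes called are again not given. Between 3 and 14 dpf the other arms differed by -0.42 to 0.34, and 0 of 10 were called.

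With the scaling used here, the miR-206 pair was the only one among the guide arms called over age, which did not hold when arrays were scaled on the median of all known probes. Its control level was 1.41 and 1.36 at 3 dpf, 0.85, 0.78 and 0.88 at 7 dpf and 0.75, 0.51 and 0.67 at 14 dpf. The level at 3 dpf was above that at both later ages on every array. The differences were -0.55 ± 0.14 (SE, adjusted p = 0.00434) at 7 dpf and -0.75 ± 0.14 (adjusted p = 0.000421) at 14 dpf, with -0.52 and -0.71 in the twin probe. At 14 dpf these were the 2 members called, against 20.6% of known probes lower and 27.1% higher. With arrays scaled on the median of all known probes the difference at 7 dpf turned to 0.48, while that at 14 dpf stayed below 0 (-0.52) but was not called. miR-1 and miR-133 differed by -0.42 to -0.07 between 3 and 14 dpf and miR-499 by 0.19 to 0.24, and 0 of these 8 probes were called. The median of all known probes moved by -0.19 from 3 to 7 dpf and by 0.07 from 3 to 14 dpf.

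**Figure D2:**
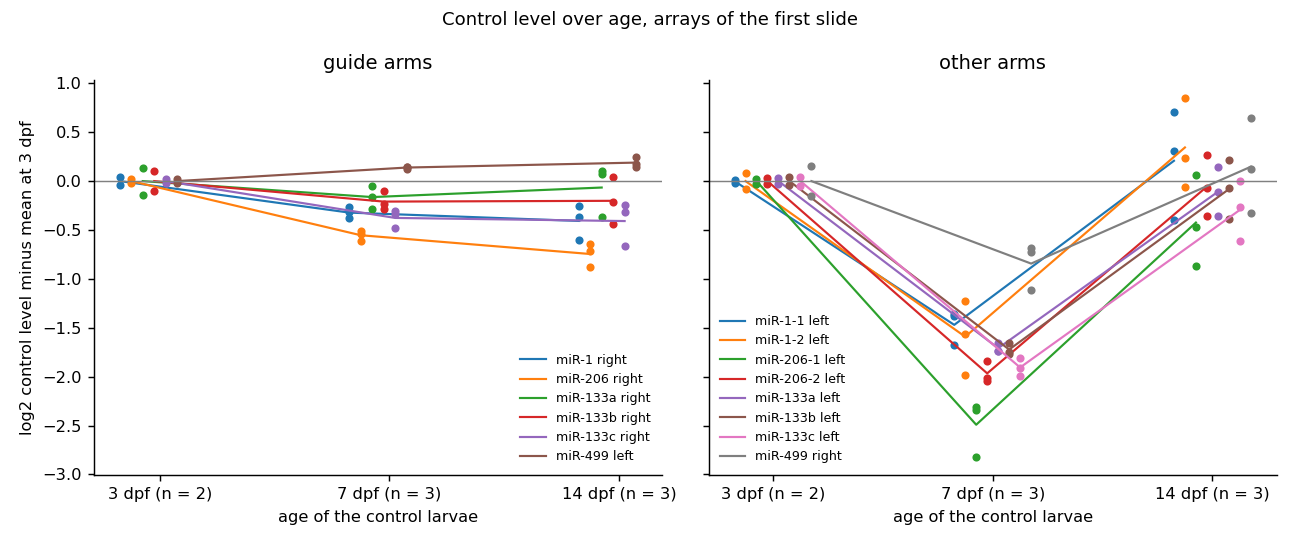
Log2 control level minus its mean at 3 dpf (vertical axis) against the age of the control larvae, on the first slide; each point is 1 array, lines join the means, and points are shifted sideways for sight. With this scaling the guide arms (left) lay near their start, with miR-206 lowest at 14 dpf (-0.75), while the other arms (right) lay below their start at 7 dpf, by 2.49 for the left arm of miR-206-1, and near it at 14 dpf; scaled on the median of all known probes, miR-206 lay above its start at 7 dpf and the guide arms had a median of 0.77.

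The Ras channel holds other animals, but it was read from the same spots of the same arrays as the control channel. The channels, and the ratios made from them, are therefore not independent. From 3 to 7 dpf 8 of 20 member probes were called lower, all of them other arms, against 27.1% of known probes lower and 12.2% higher. Those of miR-206-1 and miR-206-2 differed by -1.60 and -1.85, against -2.49 and -1.97 in the control channel. With Aquantile scaling 4 members were called lower, and on the median of all known probes 2 were called higher and 0 lower, without the shares of known probes beside them. The miR-206 right arm had a difference of -0.60 and was not called (adjusted p = 0.03). From 7 to 14 dpf 5 were called higher, with differences from 1.15 to 1.33 (Aquantile scaling turned that of miR-1-2 to -0.02), against 12.0% of known probes higher and 6.83% lower. That of miR-206-1 left was 0.71 for Ras and 2.07 for control larvae, and those of the miR-499 right arm 0.10 and 0.23 against 1.03 and 0.99. The differences between the channels were not tested. Between 3 and 14 dpf 0 of 20 were called (20.3% of known probes lower and 21.3% higher). At an unadjusted p below 0.05 it was 4 of 20 members, against 272 of 478 known probes.

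The third question was how control fin of adults compares with larvae. Relative to the scaling probes, miR-1, miR-133a, miR-133b and miR-499 were higher in fin than in 3 dpf larvae of the same slide, and miR-206 was lower, though not when scaled on the median of all known probes. Of 17 member probes 7 were called higher and 3 lower, against 23.3% of known probes higher and 60.2% lower, and the median of all known probes was -1.63. The member counts and that median depended on the scaling. With Aquantile the median of all known probes was -0.04, and 11 members were called higher and 2 lower. On the median of all known probes it was 0.99, and 17 were called higher and 0 lower. The shares of known probes called under these scalings are not given here. The right arms of miR-1, miR-133a, miR-133b and miR-133c and the left arm of miR-499 lay above the median of all known probes with the scaling used and with Aquantile. With the scaling used, the miR-206 right arm probes also lay above it, by 0.79 and 0.66. Scaling on the median of all known probes shifts every probe of a comparison alike, so it cannot change where a probe lies relative to that median.

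The left arm of miR-499 rose most: its level was -1.48 and -1.23 in the larvae and 0.34, 0.005 and -0.016 in the fins, with no overlap (difference 1.46 ± 0.15, SE; 2.75-fold higher; adjusted p = 2.2e-07; 1.75 in the twin probe). For miR-133b the right arm went from 0.43 and 0.38 to 1.79, 1.84 and 1.53 (difference 1.31 ± 0.16; adjusted p = 1.88e-06). miR-1 and miR-133a had differences between 1.06 and 1.19. In all of these the 3 fins lay above the 2 larval samples.

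The miR-206 right arm, made from both mir206-1 beside mir133b and mir206-2 beside mir133c, had the opposite sign. For miR-206 the right arm went from 2.22 and 2.40 to 1.59, 1.52 and 1.31 (difference -0.84 ± 0.14, SE; 1.79-fold lower; adjusted p = 5.2e-05). For miR-133c the right arm had a difference of -0.30 ± 0.17 and was not called (adjusted p = 0.106), and it was 0.88 with Aquantile scaling and 2.32 on the median of all known probes. With arrays scaled on the median of all known probes the difference of miR-206 turned to 1.64 to 1.78. Those of miR-1 (3.68 or more) and miR-133b (3.93) moved by the same amount. This scaling shifts every probe alike, so the order of the probes could not change. The left arm of miR-206-1 was lower in fin (-1.56 ± 0.29, adjusted p = 0.000132), but at 0.50 with Aquantile scaling. In this comparison all 45 tested probes of brain miRNAs were called lower (median -5.77), and 5 of 5 of liver and gut (median -6.27). Of 6 tested probes of white blood cells 5 were called higher and 1 lower (median 2.38). Epithelial probes had 4 higher and 4 lower of 12 tested, and smooth muscle probes 3 higher and 3 lower of 6. Cartilage and connective tissue had 1 higher and 4 lower of 10, red blood cells 1 higher and 2 lower of 4, and miR-204 0 higher and 4 lower of 6.

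In the Ras channel tumor fin was set against kita:Ras larvae of the same slide. Of 15 member probes 0 were called higher and 7 lower, against 22.4% of known probes higher and 59.2% lower (median of all known probes -1.37). The right arm of miR-206 had a level of 1.97 and 2.11 in larvae and 0.26, 0.28 and -0.46 in tumors (difference -2.02 ± 0.22, SE; 4.04-fold lower; adjusted p = 1.81e-07). That of miR-133c had a difference of -1.51 ± 0.19 (adjusted p = 1.14e-06). miR-1, miR-133a, miR-133b and miR-499 differed by -0.13 to 0.56 and were not called. The left arms of miR-133 were lower by 1.23 to 1.86 on the log2 scale. Scaled on the median of all known probes, these called differences turned positive, the miR-206 pair to 0.86 and 1.002. Aquantile scaling gave 7 calls higher and 2 lower, and turned miR-133c right and 2 of the miR-133 left arm probes positive, to between 0.02 and 0.12. The shares of known probes called with Aquantile scaling are not given here. 

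**Figure D3:**
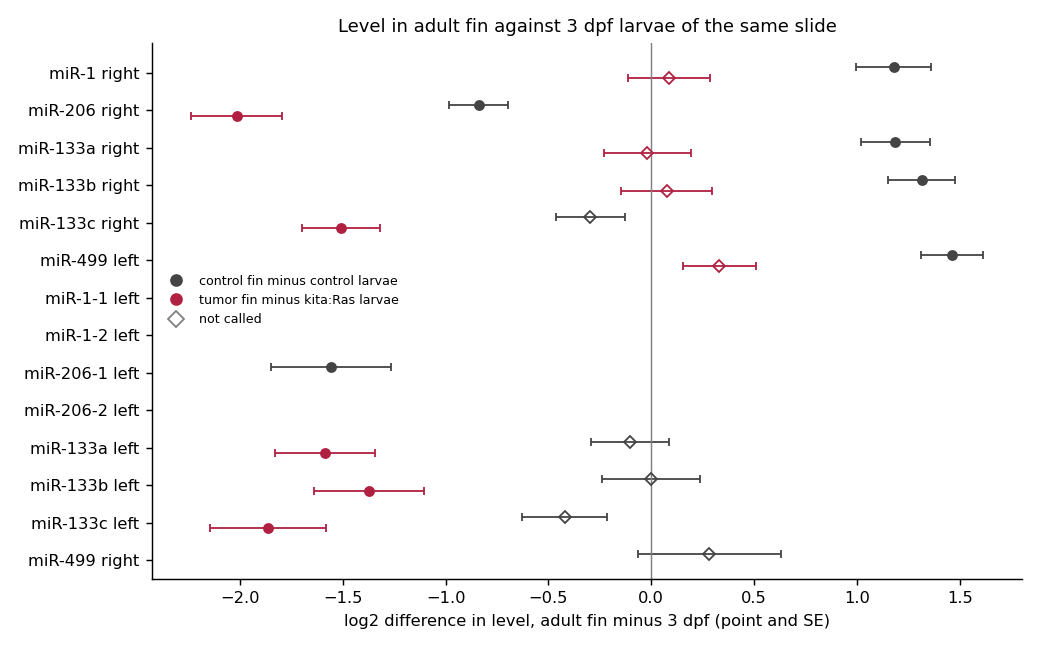
Log2 difference in level between adult fin and 3 dpf larvae (horizontal axis, point and SE of the fit) of the 14 member sequences (rows), for control fish in grey and for Ras fish in red; filled circles were called, open diamonds were not, and a missing point was not tested. In control fin miR-1, miR-133a, miR-133b and miR-499 lay between 1.18 and 1.46 and miR-206 at -0.84 (1.78 when scaled on the median of all known probes), and in tumor fin each guide arm lay further left.

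Heat shock without Ras was read from the control channel of HS-Ras against that of zic:Ras, both at 3 dpf on the third slide. These were separate pools of larvae, so that heat shock cannot be told apart from other differences between the pools. No member was called (0 of 20), nor was any known probe (0 of 454, which is 0%, with 37 at an unadjusted p below 0.05 and 0 of them members). The guide arms differed by -0.12 to 0.23 and the other arms by -0.42 to 0.14.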

How the data were processed

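The authors deposited Agilent Feature Extraction output for 19 arrays. Its log10 ratio of red over green, as deposited, was changed in sign and base to give log2 Ras over control, and its processed intensity per channel, background-subtracted and dye-normalized by the authors, gave the levels. Feature Extraction sets the ratio of many dim spots to exactly 0, and these were kept. The file headers name version 10.7.3.1 of the software and the submitters' processing notes 9.5.3.1. Spots flagged as outliers were dropped, and each probe is the mean of its 2 spots. A probe was tested where it was well above background on most arrays (3 of 4 or 2 of 3), in either channel for ratios and in the channel used in either group for levels.

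Ratios were tested with limma 3.58.1 in R 4.3.3, the 16 larval arrays in one fit (2826 known and predicted probes, prior degrees of freedom 2.18) and the 3 adult arrays in another (995 probes, 4.83). Levels were fitted with slide as a covariate. Single contrasts were tested two-sided, and all p-values adjusted by Benjamini-Hochberg over known probes. The number of arrays limits the precision. A simulation with known changes was used to test the scripts, and figures were drawn with matplotlib 3.10.9. All members were named. Values on every array were given for called members and those the text turns on, and the 5 probes of most similar ratio were added. Members, lists and tests were chosen with earlier results of these data known.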

Additional observations from a re-analysis of the deposited data

How the results depend on the processing

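No direction of a called ratio changed in any alternative, but the sizes did. At 14 dpf the left arm of miR-206-2 ran from -1.87 to -0.51 and that of miR-206-1 from -1.72 to -0.605. The miR-499 right arm probes ran from -1.47 to -0.44 and from -1.38 to -0.45. In adult fin the left arm of miR-206-1 ran from -2.10 to -0.38, and the called probe of the miR-499 right arm from -2.13 to -0.255. The number of member probes called in adult tumor fin (2 as reported) was 5 with normexp background correction and loess, 1 after centering on the array median, 1 without spots at a ratio of 0, 0 without a filter on dim probes, 0 with both channels above background on every array, 15 at an adjusted p below 0.05, 10 at an unadjusted p below 0.01 and 1 with identical sequences averaged. At 14 dpf (9) it was 4 after centering, 0 with each comparison fitted alone and 4 with slide as a random block. For HS-Ras (0) it was 1 without the filter and 1 at an unadjusted p below 0.01, and for kita:Ras at 3 dpf (0) it was 1 at that p and 1 at an adjusted p below 0.05. A prior from the known probes only, an alternative chosen after seeing the data, gave 1 call in adult fin, 1 in HS-Ras and 13 for the Ras level from 3 to 7 dpf (8). At an adjusted p below 0.05 in adult fin, 30.1% of known probes were called lower and 11.8% higher. For the other counts the shares of known probes called are not given, so that they cannot be read as a result about the members alone. Why these counts moved was not tested.

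For control levels, scaling between channels and arrays by the Aquantile method gave 4 calls from 3 to 7 dpf (11) and 3 from 7 to 14 dpf (9). Scaling on the median of all known probes gave 0 from 3 to 14 dpf (2), 17 from 7 to 14 dpf (7 higher and 10 lower, where all 9 were higher) and 17 in adult fin (all higher, in place of 7 higher and 3 lower). From 3 to 14 dpf there were 0 without a filter and 4 at an adjusted p below 0.05. For Ras levels, Aquantile scaling gave 4 calls from 3 to 7 dpf (8) and 1 from 7 to 14 dpf (5), and median scaling 2 (both higher, where all 8 were lower) and 0, with 15 in adult fin (all higher, where all 7 were lower). From 3 to 7 dpf there were 13 on the first slide alone and 15 at an adjusted p below 0.05. From 7 to 14 dpf there were 3 without a slide term, in adult fin 12 without a filter, and from 3 to 14 dpf (0) 3 at an adjusted p below 0.05. For these counts the shares of all known probes called are not given.

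Among the values of called members, signs turned under another scaling only. On the median of all known probes, control differences became 0.48 and 0.51 (miR-206 right) and 0.10 (1 miR-499 right probe) at 7 dpf, and 1.64 and 1.78 (miR-206 right) and 1.06 (miR-206-1 left) in adult fin. Ras differences in adult fin became 0.86 and 1.002 (miR-206 right), 1.51 (miR-133c right), and 1.15, 1.65, 1.79 and 1.43 (miR-133 left arms). With Aquantile they became 0.039 (miR-133c right), 0.12 (miR-133b left) and 0.024 (1 miR-133a left probe), with -0.022 for miR-1-2 left from 7 to 14 dpf, and the control difference of miR-206-1 left in adult fin became 0.50.

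Leaving out 1 array at a time gave 1 to 10 calls at 14 dpf (1 without replicate 2, 3 without replicate 1) with a median of the other arms from -0.97 to -0.50, and 0 to 4 in adult fin with a median of the guide arms from -1.13 to -0.92. It gave 0 to 1 in kita:Ras at 3 dpf and in the test between ages. Control levels gave 6 to 11 calls from 3 to 7 dpf, 1 to 2 from 3 to 14 dpf, 8 to 10 from 7 to 14 dpf and 10 to 13 in adult fin. Ras levels gave 5 to 13, 0 to 3, 3 to 7 and 7 to 12 in the same order. Apart from 14 dpf without replicate 2, the shares of known probes called in these fits are not given.

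Replicate numbers were not treated as a pairing of the arrays. Over 30 pairs of same-numbered arrays the correlation of deviations ran from -0.37 to 0.26, with 9 above 0.1. Arrays of unlike number were not compared, so these values cannot settle whether the numbers pair the arrays. All 3 pairs of kita:Ras at 3 and 14 dpf were above it (0.172 to 0.223), but in no other pair of groups were all 3. With the replicate number as a block, 4 members were called at 14 dpf and 7 in control levels from 3 to 7 dpf, and no other count moved by over 1.5 times. The shares of known probes called with this block are not given. The ratios have no swapped dyes, dim other arms in adult fin have only bounds, and 3 arrays a group limit what can pass.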
